A study of Mus musculus with 47 samples.

Results

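The ligands and receptors that steer growing axons were followed through neural differentiation of mouse embryonic stem cells (ESCs) and after removal of subunits of Polycomb repressive complex 2 (PRC2). The members were all symbols of the deposited expression table that belong by name to the slit, Robo, netrin, Unc5, Dcc, neogenin, neuropilin, plexin, semaphorin (classes 3 to 7), ephrin and EPH receptor genes. The rule found 70 of 35856 symbols, with 35 ligands and 35 receptors. They comprised 7 SLIT and ROBO genes, 10 netrins and netrin receptors, 20 semaphorins, 11 neuropilins and plexins, 8 ephrins and 14 EPH receptors. The rule uses names alone, but it was set with earlier results of these data known.

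Poly(A) RNA was sequenced from 47 libraries in 16 groups. All cells derived from a C57BL/6 ESC line expressing Tir1, the plant ubiquitin ligase adaptor that marks proteins carrying an auxin-inducible degron (AID) for destruction when auxin is present. In each of 3 lines the degron was fused to SUZ12 (a core PRC2 subunit), JARID2 or MTF2 (accessory subunits of alternative PRC2 assemblies). An untagged line carried Tir1 without a degron fusion. NPC groups (neural progenitor cultures) were SUZ12, JARID2, MTF2 and untagged cells with 50 µM indole-3-acetic acid (auxin) throughout 5 days of differentiation, each beside the same line without auxin. Differentiation used bFGF at 10 ng/ml for 72 h and then SAG, an agonist of the hedgehog pathway, at 500 nM for 48 h. ESC groups were the same 4 lines kept with LIF at 100 U/ml and the inhibitors CHIR99021 (3 µM) and PD0325901 (1 µM), with 50 µM auxin for 12 h or without it. Each group had 3 libraries, except auxin-treated SUZ12 NPC with 2. How many clones stood behind a line was not given in the sources used here. For MTF2 and JARID2 NPC the library titles read day 0, whereas every other label puts them at NPC, and the other labels were followed.

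As background, slits are secreted repellents read by ROBO receptors. Netrins attract axons through DCC and neogenin and repel them when an UNC5 receptor takes part. Class 3 semaphorins are secreted and mostly signal through neuropilin and plexin pairs, while classes 4 to 7 are membrane-bound and bind plexins directly. Ephrins are membrane-bound ligands of the EPH receptor tyrosine kinases, with A ephrins tethered by lipid and B ephrins spanning the membrane. In the ventral neural tube, floor plate cells secrete netrin 1 and slits, and differentiating neurons carry many of the receptors. PRC2 places the H3K27me3 mark, which is associated with silent developmental genes.

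Values are TPM, read counts scaled for transcript length and for the library total. Depth, as the fewest whole reads that give the TPM steps, ran from 3237115 to 8707922 per library. Untagged untreated NPC cultures had the transcripts of their label: the summed TPM of 6 neural progenitor markers was 1133 to 1192 TPM in NPC and 48.5 to 50.4 TPM in ESC. That of 6 neuron markers was 2728 to 2948 TPM in NPC and 419 to 446 TPM in ESC. The sum of 6 ESC markers was 18.5 to 21.7 TPM in NPC and 3283 to 3341 TPM in ESC. The degron acts on protein, so the transcripts of the tagged genes check no depletion: in NPC, Suz12 had 159.6 to 167 TPM with auxin and 76.5 to 79.5 TPM without it in the SUZ12 line, Jarid2 51.4 to 65 TPM and 32 to 38.5 TPM in the JARID2 line, and Mtf2 21.6 to 26.7 TPM and 20.4 to 21.4 TPM in the MTF2 line. Tests were made with limma on log2(TPM + 0.5) over all genes with at least 1 TPM in at least 2 libraries, and a gene is called where its Benjamini-Hochberg adjusted p was under 0.05. All fold changes below are on that log2 scale, with standard errors, and understate changes of genes near or below 0.5 TPM. Shares of all genes called are given for these tests alone. Counts of members under other settings, by voom or at an unadjusted p have no such share beside them. They show how the calls depend on the setting, not how members compare with other genes. In NPC 65 members passed this filter and in ESC 51. The 5 members below it at both stages, Epha6, Ntn5, Plxnb3, Sema3g and Unc5d, were not tested, and no member was at 0 reads in every library.

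Most guidance genes rose when untagged ESCs became NPCs, and the members together made up 2532 ± 225 TPM in NPC and 641 ± 7.18 TPM in ESC (SD, n = 3 each). Of the 65 tested, 53 were called higher in NPC and 8 lower, where 47.6% of all tested genes were called higher and 28.5% lower. For 14 members the filter was reached in NPC alone, so a rise was the only change they could show. They were Dcc, Epha3, Epha5, Epha8, Nrp1, Ntn4, Plxna4, Robo2, Robo3, Sema3a, Sema3d, Sema6d, Slit1 and Unc5c. Among the 51 that reached it at both stages, in libraries of any line, 39 were higher, 8 lower and 4 not called. Robo4, 1 of the 8, reached it in NPC only through the auxin-treated SUZ12 libraries. A fall was thus the only change it could show here. The median log2 change of the 65 was 2.44, against 0.283 over all genes tested. As these are whole cultures, fewer cells of a type and less RNA per cell cannot be told apart here or in any comparison below.

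The secreted midline cues stood out by level. Slit1 (chr19:41600257-41743665, minus strand, GRCm38) had 280.1, 267 and 222 TPM in the 3 NPC libraries and 0.712, 0.259 and 0.375 TPM in the 3 ESC libraries. Its log2 change, 8.10 ± 0.19 (SE, adjusted p = 4.0e-30), was the largest of any member. Slit1 reached the filter in NPC alone, so only a rise could be seen in it. Netrin 1 (Ntn1, chr11:68209364-68400823, minus strand) was the most abundant member in NPC, with 491, 486 and 427 TPM, against 21.8, 22.5 and 20.2 TPM in ESC. Slit3 averaged 151 ± 16.4 TPM in NPC and 2.48 ± 0.187 TPM in ESC, and Slit2 58.1 ± 2.83 TPM and 12.3 ± 0.552 TPM. In none of these 4 did an NPC library overlap an ESC library. Here and below, overlap is described mostly for genes already picked by their change, and no share over all genes is given. It is thus no further test of them.

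Of the ROBO and netrin receptors, Robo1, Robo2, Robo3, Dcc, Neo1, Unc5a and Unc5c rose and Robo4 and Unc5b fell. Robo2, a SLIT receptor, had 11.5, 10.3 and 10.4 TPM in NPC and 0.0349, 0 and 0.0683 TPM in ESC. Unc5a (chr13:54949411-55006018, plus strand), a repulsive netrin receptor of neurons, had 71.9, 65.5 and 56.7 TPM in NPC and 0.322, 0.711 and 0.314 TPM in ESC. Nrp1, the co-receptor of SEMA3A and of VEGF, rose by 5.24 ± 0.16 (SE, adjusted p = 2.3e-26) on the log2 scale, and Plxna2 and Plxna4 by 4.25 and 3.75. Among the ligands, Ntn4 rose by 4.30. All 10 tested neuropilins and plexins were called higher, with Plxna1 the most abundant in NPC at 164 ± 21 TPM, against 46.9 ± 2.43 TPM in ESC.

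Among the semaphorins 13 of 19 tested rose, 2 fell and 4 (Sema3e, Sema4a, Sema4f and Sema5a) did not pass the test. With median-of-ratios scaling 12 rose and 4 fell, and 6 of 8 ephrins rose where 7 had. The largest rise was that of Sema6d, a transmembrane ligand of plexin A1, at 6.12 (adjusted p = 5.6e-32), followed by Sema6a at 4.79 and Sema4c at 4.78, and Sema5b was the most abundant in NPC, at 81 ± 9.51 TPM. Sema4b was the most abundant member in ESC, and fell to 27 ± 1.45 TPM in NPC, against 107 ± 1.40 TPM in ESC.

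EPH receptors changed more in their members than in their sum, which was 245 ± 20.7 TPM in NPC and 197 ± 1.37 TPM in ESC, while ephrins summed to 263 ± 7.96 TPM and 62.1 ± 2.71 TPM. Within the EPH sum, Epha2 (chr4:141301240-141329384, plus strand), a receptor of ephrin A1, fell to 3.41, 3.32 and 3.19 TPM in NPC, against 79.1, 79.2 and 80.3 TPM in ESC. Ephb2 rose to 82.2, 75.4 and 66.9 TPM in NPC, against 4.39, 4.08 and 4.41 TPM in ESC, and Ephb1 and Epha3 rose by 3.78 and 3.42 on the log2 scale. NPC and ESC libraries did not overlap in Epha2 or Ephb2. Ephb4, which pairs with ephrin B2 in blood vessels, fell by 0.90 on the log2 scale, whereas Efnb3 rose to 73.9 ± 3.81 TPM in NPC, against 5.06 ± 0.468 TPM in ESC. Efna5 and Efnb1 rose by 3.89 and 3.28. The other members called lower were Robo4, a receptor best known from endothelium, Unc5b, Epha1, Efna1 and Sema4d, with log2 changes between -1.97 and -0.55. The most abundant ephrin, netrin receptor and plexin in ESC were Efna4, Neo1 and Plxnb2. Efna4 averaged 47.5 ± 2.46 TPM in NPC and 27.4 ± 3.12 TPM in ESC, Neo1 51.9 ± 2.70 TPM and 32.5 ± 0.962 TPM, and Plxnb2 122 ± 12.9 TPM and 50.7 ± 2.72 TPM.

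**Figure D1:**
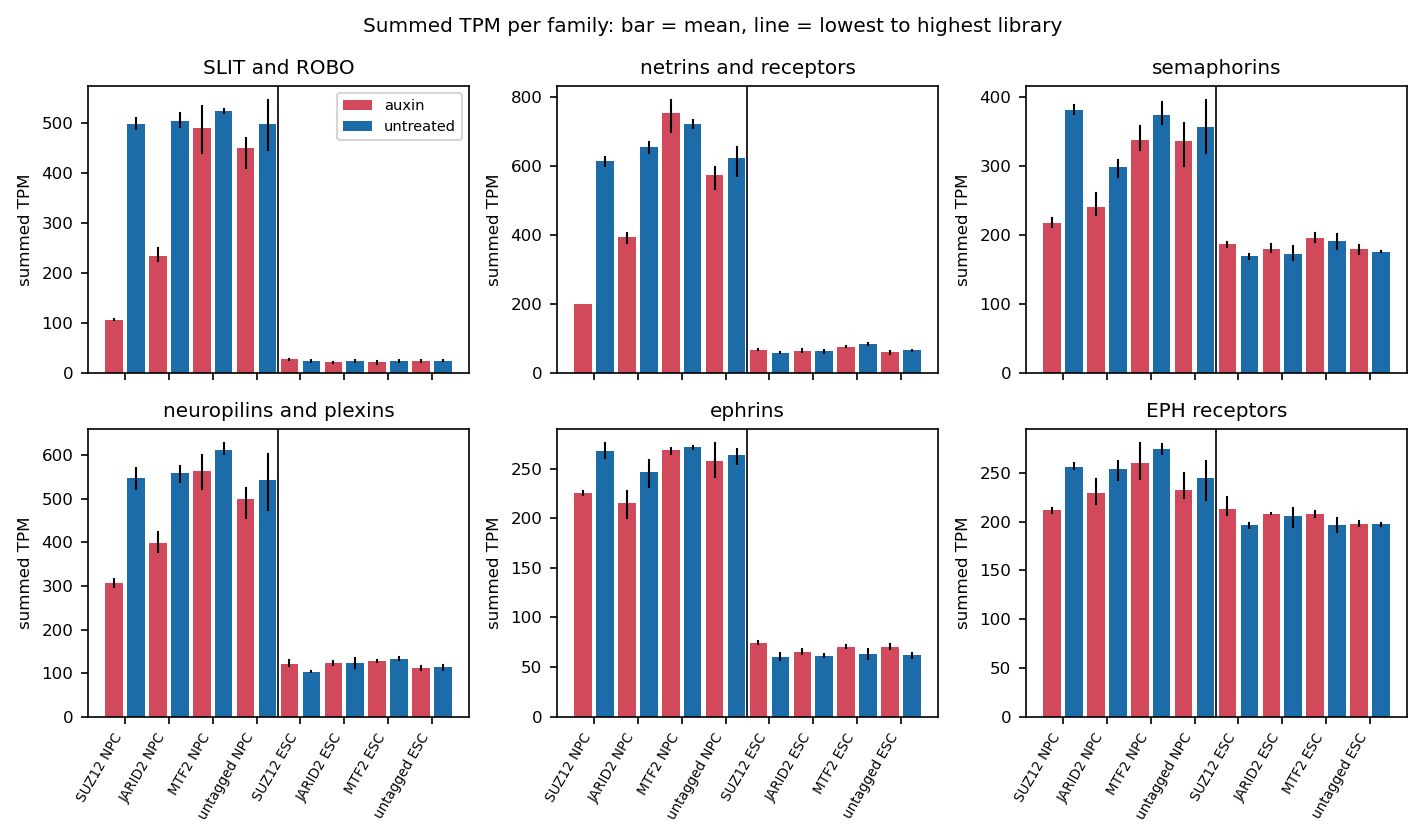
Summed TPM (linear axis from 0) of the 6 families in all 16 groups, with auxin-treated groups in red left of their untreated groups in blue, bars for the mean over libraries and lines from the lowest to the highest library. SLIT and ROBO genes summed to 107 ± 1.55 TPM in auxin-treated SUZ12 NPC and 499 ± 10.6 TPM in untreated SUZ12 NPC, whereas EPH receptors summed to 212 ± 3.76 TPM and 256 ± 3.41 TPM.

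In SUZ12 NPC most guidance genes were lower with auxin and a smaller set higher. The members summed to 1269.6 ± 21 TPM (SD, n = 2) with auxin and 2567 ± 63.3 TPM (SD, n = 3) without it. Ligands summed to 642 ± 4.0 TPM with auxin and 1590.0 ± 31.1 TPM without it, and receptors to 627 ± 25 TPM and 977 ± 32.3 TPM. Of the 65 members tested, 40 were called lower and 17 higher. Over all genes the shares were 33% lower and 23.9% higher. The members' median log2 change was -0.61, against -0.10 over all genes. With the auxin effect of the untagged line taken off, 30 members were lower and 15 higher in SUZ12 NPC. Over all genes 24.7% and 18.8% were.

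Netrin 1 and Slit1 lost more TPM than any other member. Slit1 had 26 and 28.4 TPM in the 2 auxin-treated libraries, against 246, 249 and 246 TPM in the 3 untreated ones, a log2 change of -3.16 ± 0.08 (SE, adjusted p = 7.2e-18). Ntn1 had 88.9 and 104 TPM with auxin and 466, 467 and 441 TPM without it, with -2.25 ± 0.07 (SE, adjusted p = 1.7e-16). The treated libraries lay below all untreated ones in both genes, yet above the ESC level. Slit2 and Slit3 fell by 1.99 and 1.89 on the log2 scale, and Ntn4, a laminin-related netrin of basement membranes, by 0.74. Ntn3 went the other way, to 10.8 and 10.2 TPM with auxin against 5.93, 5.55 and 7.43 TPM without it.

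Among the ROBO and netrin receptors tested, Unc5b and Robo4 were called higher and the others lower. Dcc, the attractive netrin receptor, had 0.317 and 0.418 TPM with auxin and 5.89, 6.14 and 5.64 TPM without it, a log2 change of -2.88 ± 0.20 (SE, adjusted p = 5.8e-11). Unc5a had 12.2 and 12.3 TPM with auxin and 67.3, 62.8 and 64.5 TPM without it. Robo3, which commissural axons need to cross the midline, changed by -2.04 (adjusted p = 5.8e-08), and Robo1 and Robo2 by -0.64 and -0.58. Unc5b rose to 32.3 and 24.7 TPM with auxin, against 5.23, 6.02 and 5.72 TPM without it, with 2.23 ± 0.16 (SE, adjusted p = 1.0e-10). Robo4 had 1.24 and 1.82 TPM with auxin and 0.253, 0 and 0 TPM without it, and rested on 32 reads in all with auxin and 3 without. In Dcc, Unc5a and Unc5b no treated library overlapped an untreated one. Robo4 passed the filter only through the auxin-treated SUZ12 libraries, so that only a rise could be seen in it.

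Semaphorins moved in both directions, 8 lower and 6 higher of 19 tested. The membrane-bound Sema6d fell to 3.68 and 3.96 TPM with auxin, against 47.3, 43.3 and 42.9 TPM without it, the largest log2 drop of any member at -3.38 ± 0.12 (SE, adjusted p = 8.8e-16). Sema5b and Sema6a followed with -2.32 and -1.53, and all 4 class 6 genes were called lower. Of the secreted class 3 genes, Sema3a, Sema3c and Sema3e rose by 1.15, 0.98 and 1.68 on the log2 scale. Sema3d fell, by 0.87, while Sema3b and Sema3f were not called. Of the membrane-bound class 4, Sema4b, Sema4d and Sema4f rose, by 0.44, 0.30 and 0.67, and Sema4c and Sema4g fell, by 1.08 and 0.66. Sema3a, a repellent of NRP1-bearing axons, had 6.30 and 5.90 TPM with auxin and 2.84, 2.45 and 2.17 TPM without it. Among the receptors of these ligands 9 of 10 tested neuropilins and plexins were called lower, from Plxna4 at -2.81 ± 0.13 (SE, adjusted p = 1.0e-13) to Plxnb2 at -0.28. No library of 1 group lay among those of the other in Sema6d or Sema3a. The tenth plexin or neuropilin, Plxnd1, overlapped, with 11.7 and 11.2 TPM with auxin and 12.2, 11.2 and 11.2 TPM without it.

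EPH receptors and ephrins exchanged members, with 4 receptors and 4 ephrins called higher and 8 receptors and 3 ephrins called lower. Epha2 rose to 36.6 and 33.8 TPM with auxin, against 2.84, 4.01 and 3.53 TPM without it, a log2 change of 3.18 ± 0.16 (SE, adjusted p = 1.9e-13). This was the largest rise of any member, and its ligand gene Efna1 rose by 2.23 ± 0.28 (SE, adjusted p = 6.6e-07), to 5.84 and 8.02 TPM against 0.824, 1.66 and 0.855 TPM. Both genes were higher in each treated library than in any untreated one. Epha1 and Epha8 rose at low levels, resting on 79 and 56 reads with auxin and 11 and 28 without. The vascular pair Efnb2 and Ephb4 rose by 0.76 and 0.44. Ephb1 fell to 3.04 and 4.78 TPM with auxin, against 18.7, 20.6 and 19.5 TPM without it, and Efnb3 to 16.6 and 18 TPM, against 69.9, 62.5 and 69.4 TPM. Epha5 and Epha10, the second of which lacks kinase activity, fell by 2.28 and 1.99 on the log2 scale.

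Cell type markers moved with these groups. In SUZ12 NPC the neuron markers summed to 259 to 293 TPM with auxin and 2641 to 2753 TPM without it, and 6 of 6 were called lower. Floor plate markers summed to 153 to 158 TPM and 526 to 542 TPM, with all 5 tested called lower. ESC markers summed to 546 to 559 TPM and 11.8 to 17.3 TPM, with 6 of 6 higher. Neural progenitor markers summed to 195 to 202 TPM with auxin and 1177 to 1283 TPM without it, with 6 of 6 lower, and ventral neural tube progenitor markers to 88.2 to 92.1 TPM and 1208 to 1213 TPM, with 4 of 4 lower. Motor neuron markers summed to 62 to 64 TPM and 629.8 to 662 TPM, with 4 of 5 lower and 1 higher. Neural crest markers summed to 10.8 to 11.9 TPM and 1.40 to 1.43 TPM, with 4 of 5 higher. The 5 endothelial markers summed to 49.4 to 49.5 TPM and 12.1 to 13.8 TPM, with Pecam1, Kdr and Tek called higher. Pecam1 made up most of that sum, with a mean of 32.8 TPM with auxin and 1.60 TPM without it, and averaged 97.2 TPM in untagged untreated ESC, while Cdh5 averaged 6.95 TPM with auxin and 9.72 TPM without it and was not called. Mesoderm and mesenchyme markers summed to 302 to 305 TPM and 62.6 to 66.7 TPM, with 4 of the 5 tested higher. Endoderm markers summed to 41.8 to 42.2 TPM and 26.6 to 33.7 TPM, and glia markers to 13.2 to 15.3 TPM and 12.4 to 13.9 TPM. Among the endoderm markers Gata6 averaged 13.9 TPM with auxin and 0.18 TPM without it, and Gata4 13.4 and 1.28 TPM. Foxa1 went the other way, with 13.4 and 28.2 TPM. Mesp1, a mesoderm marker, was at 0 with auxin and Tfap2b, a neural crest marker, without it, and no neuron, floor plate, ESC or endothelial marker was at 0 throughout a group. Depth was 5.63 to 6.30 M reads with auxin and 6.59 to 7.70 M without it (M for 1000000). The part of these cell types and of depth in the guidance changes was not tested. All-gene scaling by median of ratios raised the median change of all genes in this comparison by 0.12 and left 38 members lower and 17 higher.

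**Figure D2:**
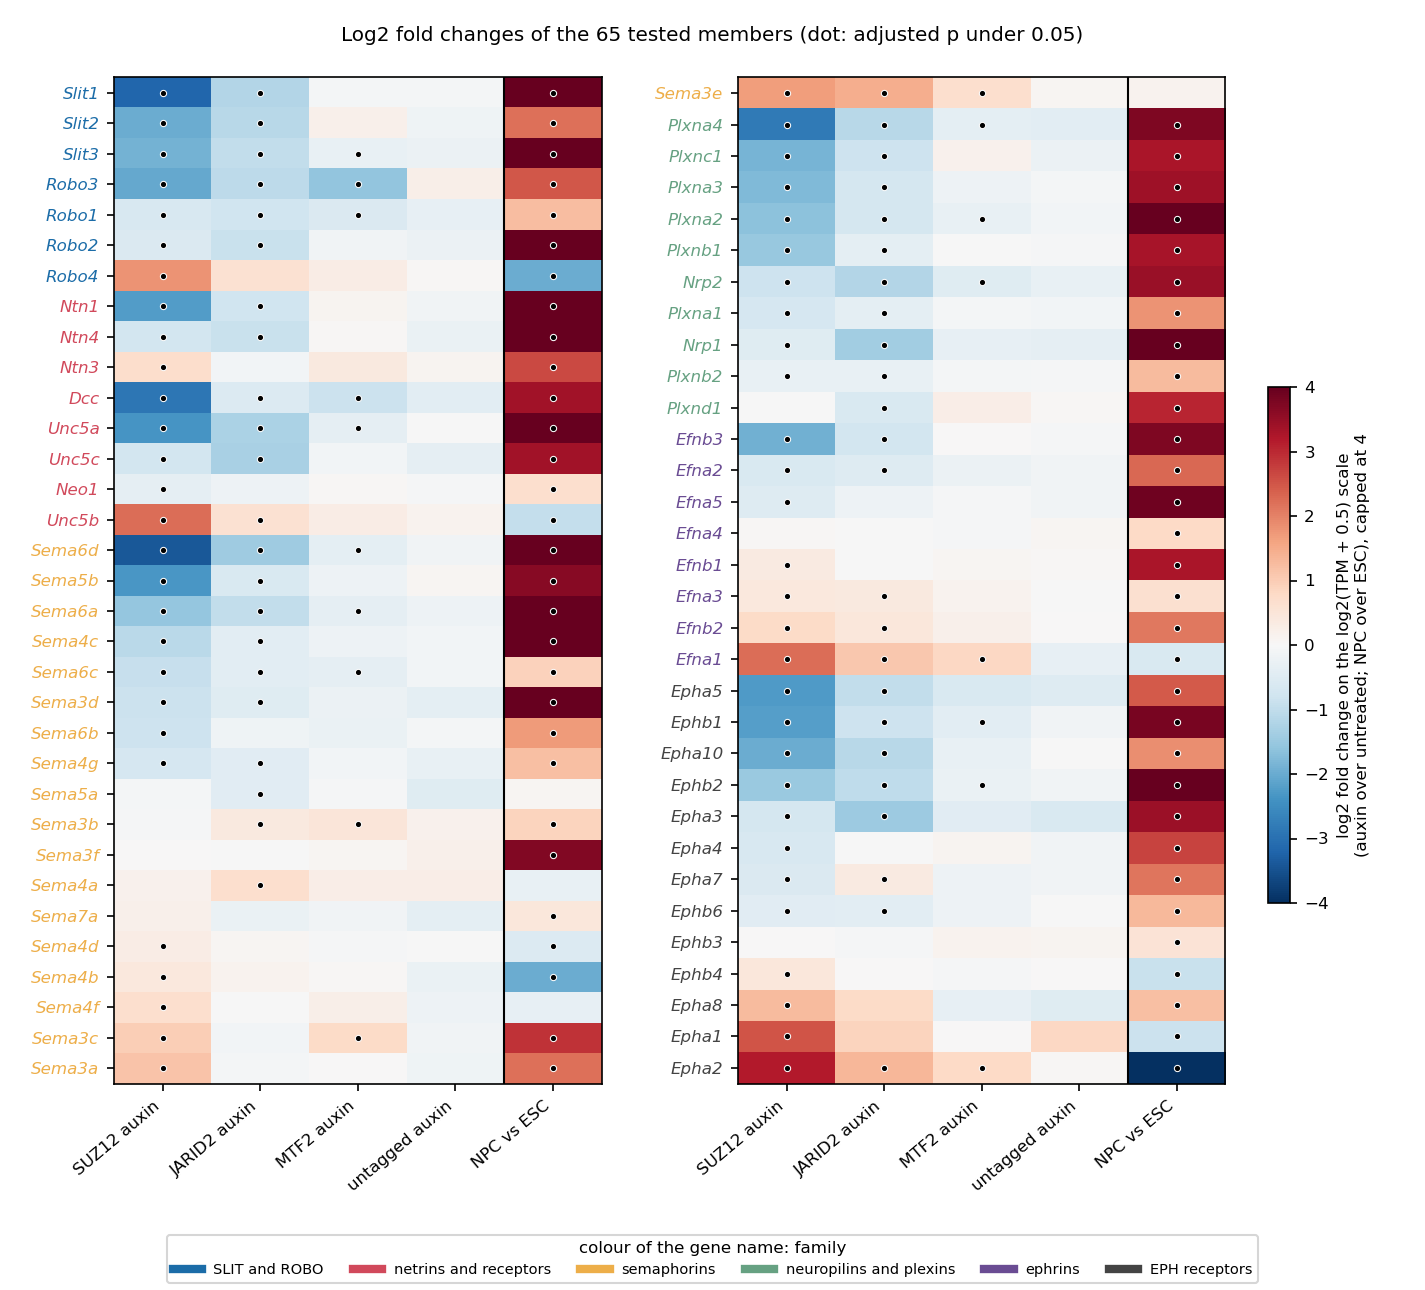
Log2 fold changes of the 65 tested members, with auxin over untreated in NPC cultures of the SUZ12, JARID2, MTF2 and untagged lines and NPC over ESC in untagged untreated cells at the far right. Red is higher, blue lower, the scale is capped at 4, black dots mark adjusted p under 0.05, and gene names are coloured by family. In the SUZ12 column 40 members are called lower and 17 higher, and in the untagged auxin column none is called.

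The calls in depleted NPC cultures were set beside the change that untagged cells made on differentiating. The group means compared come from different libraries. The filters and the estimates of spread behind the calls share libraries, so the calls are not fully independent. Of the 8 members that untagged cells lowered on becoming NPCs, Robo4 could only be called higher, as said above, and the other 7 were called higher with auxin in SUZ12 NPC as well. Over all tested genes 59.7% of those lowered on differentiating were called higher here. Of the 53 members raised, 40 (75.5%) were called lower, 7 higher and 6 not called, against 57.1% lower and 8.26% higher over all genes raised. The 7 raised on both counts were Efna3, Efnb1, Efnb2, Epha8, Ntn3, Sema3a and Sema3c. Sema3e and Sema4f, which differentiation had not changed by the test, also rose. In JARID2 NPC 36 of the 53 (67.9%) were lower, 4 higher and 13 not called, against 28.8% lower over all genes raised, and 3 of the 8 (Efna1, Epha2 and Unc5b) were higher, against 26.1%. In MTF2 NPC 13 of the 53 (24.5%) were lower and 2 higher, against 5.4% lower over all genes raised, and 2 of the 8 (Efna1 and Epha2) were higher, against 8.27%. Whether the members differ from other genes in these shares was not tested.

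**Figure D3:**
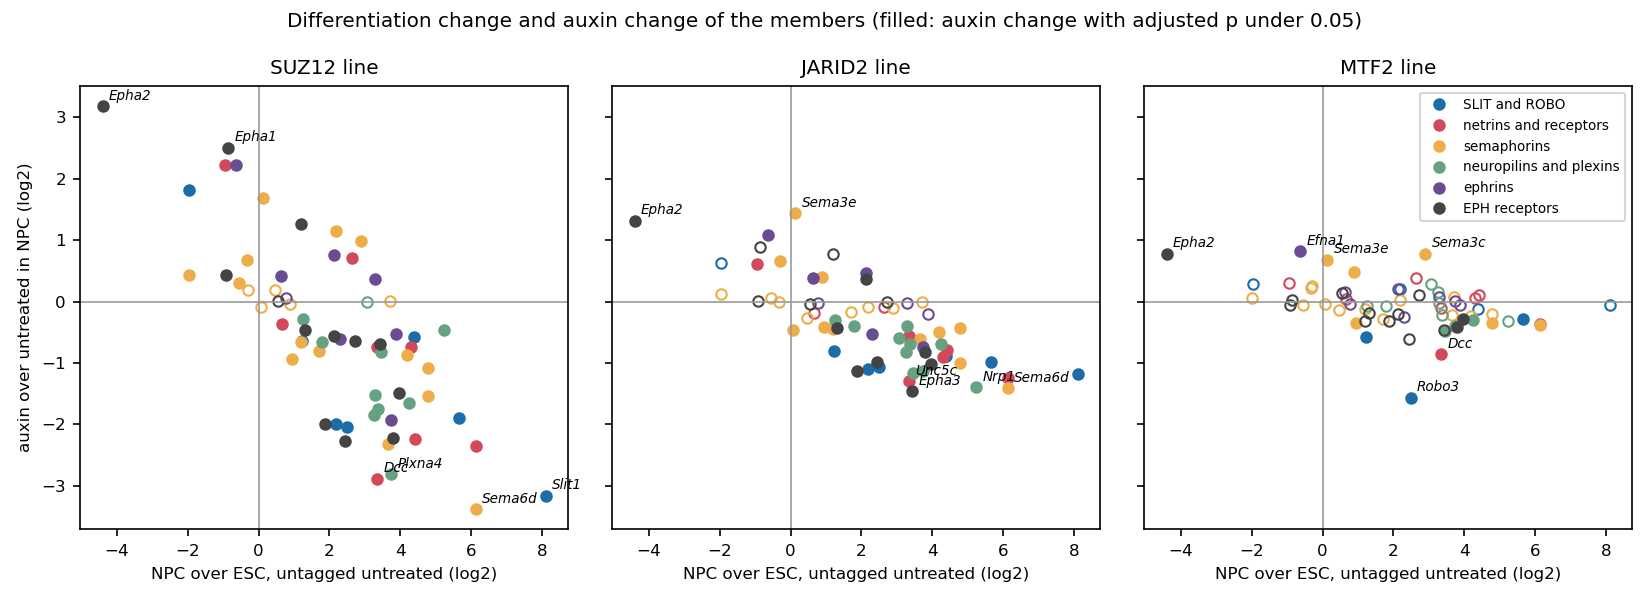
Each point is a member, placed by its log2 change from ESC to NPC in untagged untreated cells (NPC over ESC, horizontal axis) and its log2 change with auxin in NPC cultures (auxin over untreated, vertical axis), in the SUZ12, JARID2 and MTF2 lines. Filled points have an adjusted p under 0.05 for the auxin change. The 8 members called lower in NPC than in ESC are filled and above 0 in the SUZ12 panel, where Robo4, 1 of them, passed the filter only through the auxin-treated group.

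Promoters of the strongest movers differed in their density of CpG, the dinucleotide enriched in the CpG islands to which PRC2 is known to bind. The 250 bases before the first listed RefSeq start (mouse assembly GRCm38.p6) were read for 60 of the 70 members. Shown are 2 of the 5 largest falls (Sema6d and Unc5a) and 3 of the 5 largest rises (Epha2, Unc5b and Robo4) of SUZ12 NPC, 5′ to 3′ on the gene's strand, with each CG in capitals.
Sema6d, chr2:124089719-124089968, plus strand: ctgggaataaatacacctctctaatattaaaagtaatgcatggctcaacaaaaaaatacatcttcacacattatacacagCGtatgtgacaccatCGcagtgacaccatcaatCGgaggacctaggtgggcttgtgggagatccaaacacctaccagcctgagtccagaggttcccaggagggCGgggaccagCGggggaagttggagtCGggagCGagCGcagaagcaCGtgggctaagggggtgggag
Unc5a, chr13:54949161-54949410, plus strand: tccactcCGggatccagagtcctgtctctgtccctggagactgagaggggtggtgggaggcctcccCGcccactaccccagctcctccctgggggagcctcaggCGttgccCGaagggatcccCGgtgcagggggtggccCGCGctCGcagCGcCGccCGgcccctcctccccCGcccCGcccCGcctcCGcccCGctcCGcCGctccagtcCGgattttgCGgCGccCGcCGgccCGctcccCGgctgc
Epha2, chr4:141300971-141301220, plus strand: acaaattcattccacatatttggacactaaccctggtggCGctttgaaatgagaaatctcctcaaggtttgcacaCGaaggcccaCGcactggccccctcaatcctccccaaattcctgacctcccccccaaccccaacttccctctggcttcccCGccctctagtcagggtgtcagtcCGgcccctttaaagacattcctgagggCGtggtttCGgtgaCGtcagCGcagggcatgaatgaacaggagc
Unc5b, chr10:60831582-60831831, minus strand: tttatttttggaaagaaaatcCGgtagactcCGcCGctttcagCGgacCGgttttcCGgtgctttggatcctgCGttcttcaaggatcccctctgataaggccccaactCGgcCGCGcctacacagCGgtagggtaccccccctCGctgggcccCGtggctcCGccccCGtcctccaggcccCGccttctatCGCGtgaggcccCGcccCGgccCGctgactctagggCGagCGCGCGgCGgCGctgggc
Robo4, chr9:37401722-37401971, plus strand: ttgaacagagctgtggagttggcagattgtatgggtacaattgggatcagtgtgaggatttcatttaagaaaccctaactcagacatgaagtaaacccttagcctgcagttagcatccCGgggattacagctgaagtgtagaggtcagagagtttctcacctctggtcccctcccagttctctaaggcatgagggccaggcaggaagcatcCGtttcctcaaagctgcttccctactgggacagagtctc
Unc5a, which fell, held 25 CG and Unc5b, which rose, 27, against 9 in Sema6d, 9 in Epha2 and 2 in Robo4. The others of the 5 largest rises, Epha1 and Efna1, held 9 and 16 CG and are not shown. Robo4 passed the filter only through the auxin-treated SUZ12 libraries. The 33 members with an entry that were called lower had a median of 20.0 CG, and the 17 called higher 12.0. The median over all 27018 genes of the table was 6.0. A GC content of at least 50% with an observed to expected CG ratio of at least 0.6 was met by 24 of the 33 (72.7%) and 7 of the 17 (41.2%). It was met by 2 of the 6 not called (33.3%) and by 31.4% of all genes. The first listed start can lie within the gene, as in Sema3a, whose window begins at chr5:13396534 and its gene at chr5:13125414. These counts describe letters in the window, were not tested and say nothing of PRC2 binding.

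In JARID2 NPC most guidance genes were also lower with auxin, among them the 10 tested neuropilins and plexins and the 3 slits. The netrin receptors Dcc, Unc5a and Unc5c were lower too, while Unc5b rose and Neo1 was not called. The members summed to 1714 ± 86.9 TPM with auxin and 2517 ± 64 TPM without it (SD, n = 3 each), with 37 called lower and 9 higher, where 15.7% of all genes were lower and 9.28% higher. Of the 40 members lower in SUZ12 NPC, 35 were lower here, which is 87.5% of the SUZ12 list and 94.6% of the 37. Over all genes the same overlap was 40.7% of those lower in SUZ12 NPC and 85.6% of those lower in JARID2 NPC. Of the 17 higher in SUZ12 NPC, 6 (35.3%, against 32.4% over all genes) were higher here: Efna1, Efna3, Efnb2, Epha2, Sema3e and Unc5b. With the auxin effect of the untagged line taken off, 23 members were lower and 4 higher in JARID2 NPC. Over all genes 5.94% and 3.1% were. Of the 10 neuropilins and plexins 7 were then lower.

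Slit1 had 125, 115 and 114 TPM in JARID2 NPC with auxin and 278, 265 and 259 TPM without it, a log2 change of -1.18 ± 0.08 (SE, adjusted p = 1.9e-10). Ntn1 had 317, 299 and 321 TPM with auxin, against 525, 558 and 541 TPM without it. The groups did not overlap in either gene. Slit2, Slit3 and Ntn4 fell by 1.10, 0.98 and 0.90 on the log2 scale. Floor plate markers moved beside them, summing to 402 to 421 TPM with auxin and 665 to 686 TPM without it, with all 5 tested called lower, and their part was not tested.

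Every one of the 10 tested neuropilins and plexins was called lower in JARID2 NPC. Nrp1 had 8.08, 5.70 and 6.25 TPM with auxin, against 20.4, 16.5 and 17.6 TPM without it, with -1.39 ± 0.11 (SE, adjusted p = 4.9e-09). Nrp2, which pairs with plexins for SEMA3F, changed by -1.17, and Plxnd1, the direct receptor of SEMA3E, by -0.60 (adjusted p = 0.0018). Its ligand gene Sema3e moved the other way, to 12.8, 10.9 and 10.3 TPM with auxin against 3.07, 3.88 and 4.69 TPM without it, with 1.45 ± 0.21 (SE, adjusted p = 2.0e-05). Sema4a and Sema3b were the other semaphorins called higher, by 0.67 and 0.40. Sema6d had 10.5, 7.22 and 8.83 TPM with auxin and 26.7, 24 and 21.9 TPM without it. In Nrp1, Sema3e and Sema6d all treated libraries lay outside the range of the untreated ones.

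Among the netrin receptors Unc5a had 14.3, 11 and 13.7 TPM with auxin and 33.6, 30.4 and 30.5 TPM without it, and Unc5c changed by -1.29 ± 0.14 (SE, adjusted p = 2.7e-07). Robo1, Robo2 and Robo3 fell by 0.81, 0.89 and 1.06. Epha3, a receptor of A ephrins, was at 0, 0 and 0.112 TPM with auxin, 1 read in all, against 1.04, 0.788 and 1.10 TPM without it. Epha2 rose to 22, 21.7 and 19.9 TPM with auxin, against 7.83, 9.64 and 7.25 TPM without it, with 1.32 ± 0.14 (SE, adjusted p = 2.7e-07), and Efna1 rose by 1.08. Epha7 was called higher, at 0.37 (adjusted p = 0.025), and was the 1 member with opposite calls in JARID2 and SUZ12 NPC. Neuron markers summed to 516 to 587 TPM with auxin and 1511 to 1768 TPM without it, with 6 of 6 lower, and ESC markers to 164 to 183 TPM and 49.9 to 65.2 TPM, with 5 of 6 higher. Neural progenitor markers summed to 483 to 542 TPM with auxin and 684 to 811 TPM without it, with 4 of 6 lower and 1 higher, and ventral neural tube progenitor markers to 498 to 521 TPM and 717 to 885 TPM, with 3 of 4 lower. Endoderm markers summed to 28.4 to 32.3 TPM with auxin and 43.7 to 53 TPM without it. What part these cells had was not tested.

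**Figure D4:**
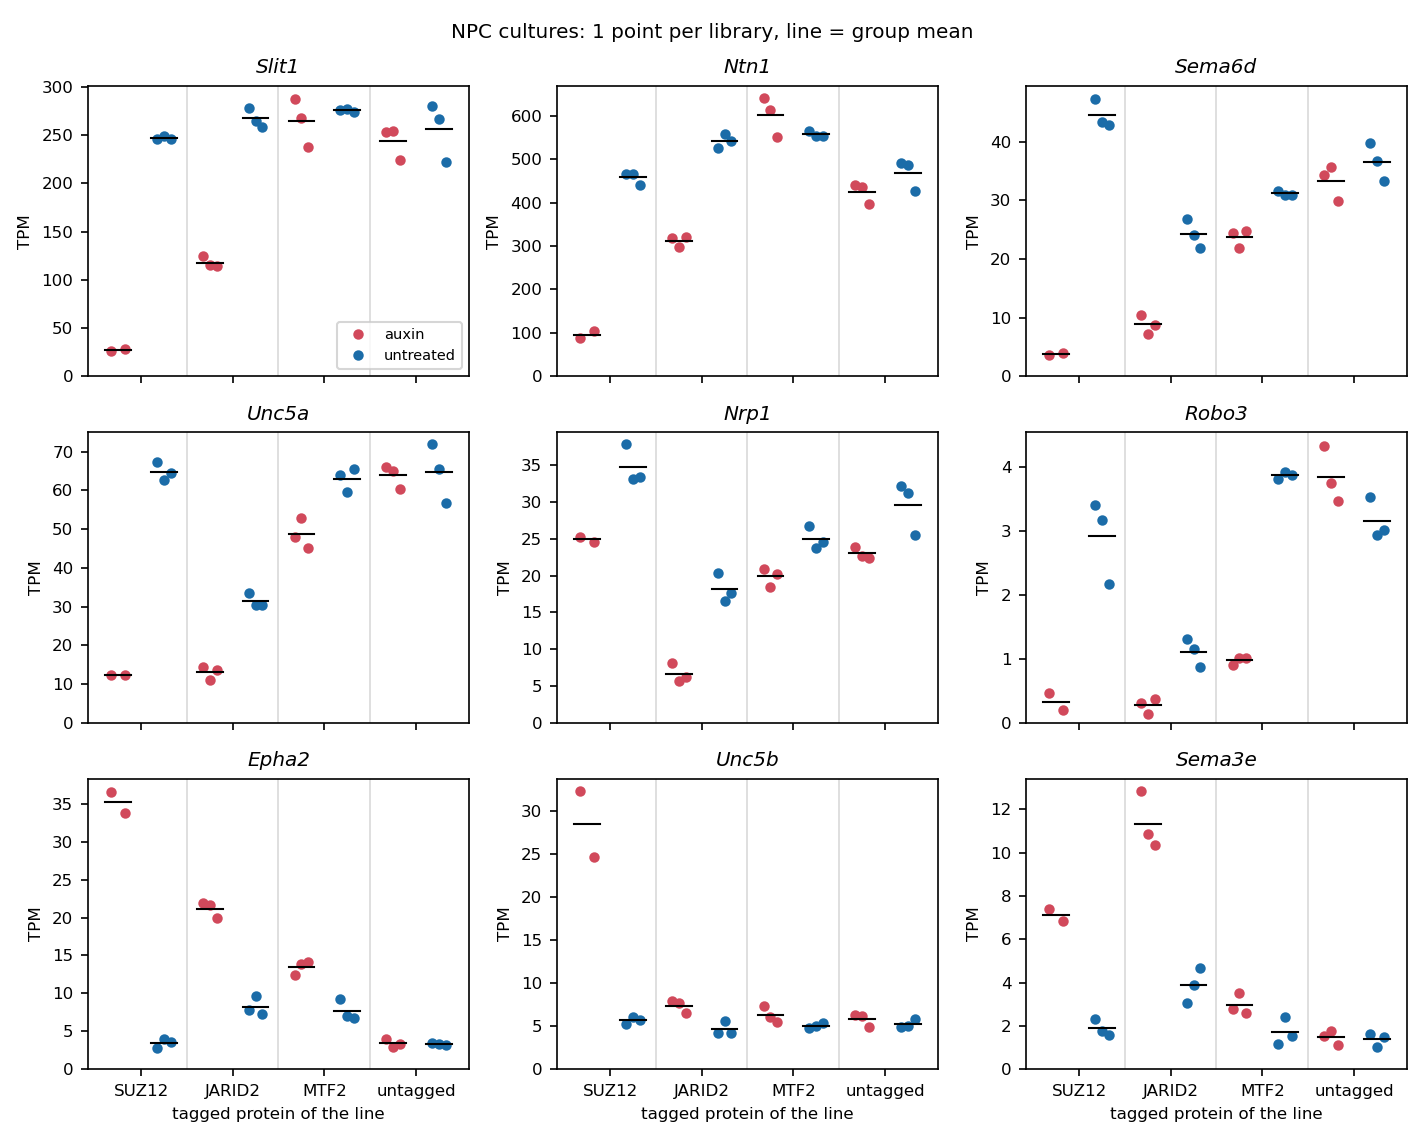
TPM (linear axes from 0) of 9 members in each NPC library, with auxin-treated libraries in red left of untreated libraries in blue for the SUZ12, JARID2, MTF2 and untagged lines, and a line at each group mean. Slit1 is at 26 and 28.4 TPM in the auxin-treated SUZ12 libraries and at 125, 115 and 114 TPM in those of JARID2, while Nrp1 is lowest in auxin-treated JARID2 libraries, at 8.08, 5.70 and 6.25 TPM.

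The JARID2 effect minus the SUZ12 effect in NPC, a contrast chosen after seeing the data, was called for 37 members. It was positive for 25, meaning a smaller drop or a larger rise with JARID2 loss, and negative for 12, where 17.6% and 13.5% of all genes were called. With voom on recovered reads it was positive for 21 and negative for 20. Positive contrasts were led by Dcc at 2.32 (adjusted p = 7.5e-07), Slit1 at 1.98 (adjusted p = 2.5e-11), Sema6d at 1.97, Sema5b at 1.71 and Plxna4 at 1.69. Ntn1 had 1.46 (adjusted p = 2.7e-10). Dcc was already at 0.983, 1.19 and 0.788 TPM in untreated JARID2 NPC, against 5.89, 6.14 and 5.64 TPM in untreated SUZ12 NPC, so that its fold change in the JARID2 line starts near the 0.5 added before taking logs.

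Negative contrasts held 2 kinds of gene. Those raised more by SUZ12 loss were led by Epha2 at -1.86 (adjusted p = 5.6e-07), Unc5b at -1.62 (adjusted p = 4.8e-06), Epha1 at -1.61, Sema3a at -1.24 and Efna1 at -1.14. Those lowered more by JARID2 loss were Nrp1 at -0.92 (adjusted p = 2.1e-04), Unc5c at -0.56 (adjusted p = 0.042) and Plxnd1 at -0.59 (adjusted p = 0.028). Nrp1 had 25.2 and 24.6 TPM in auxin-treated SUZ12 NPC and 37.9, 33.2 and 33.4 TPM in the untreated ones.

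MTF2 depletion changed fewer members, and Slit1, Slit2 and Ntn1 did not pass the test. Of the 65 tested 13 were called lower and 5 higher, where 3.11% of all genes were lower and 5.03% higher, and the median log2 change was -0.06, against 0.03 over all genes. With median-of-ratios scaling 15 were lower and 3 higher. Leaving out any 1 of the 6 libraries gave fewer calls: 8, 9 and 10 without untreated replicate 1, 2 or 3, and 12, 9 and 8 without auxin-treated replicate 1, 2 or 3.

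Robo3 had the largest log2 change with MTF2 loss, with 0.897, 1.02 and 1.02 TPM with auxin and 3.81, 3.92 and 3.88 TPM without it, a log2 change of -1.57 ± 0.19 (SE, adjusted p = 3.2e-05). The 2 groups did not overlap, and the 3 untreated values lay within 0.11 TPM of each other. Robo1, Slit3 and Dcc fell by 0.58, 0.28 and 0.86 on the log2 scale. Slit1 had 288, 268 and 238 TPM with auxin and 276, 277 and 274 TPM without it, Slit2 96.1, 86.8 and 79.1 TPM and 80.2, 72.2 and 73.5 TPM, and Ntn1 641, 613 and 549.9 TPM and 565, 552 and 554 TPM, with adjusted p = 0.67, 0.15 and 0.35. Treated and untreated libraries overlapped in Slit1, Slit2 and Ntn1. Floor plate markers summed to 655 to 729 TPM with auxin and 561 to 604 TPM without it, with 2 of 5 tested called higher and none lower.

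Sema3c rose to 12.8, 12.2 and 15.2 TPM in MTF2 NPC with auxin, against 8.41, 6.75 and 7.58 TPM without it, with 0.78 ± 0.11 (SE, adjusted p = 1.5e-04). Every treated library was above every untreated one. Sema3b and Sema3e rose by 0.48 and 0.68. Nrp2, a co-receptor of class 3 semaphorins, fell by 0.49, and Plxna2, Plxna4 and Ephb1 by 0.30, 0.39 and 0.42. Epha2 had 12.4, 13.9 and 14.2 TPM with auxin and 9.32, 6.99 and 6.75 TPM without it, with 0.78 ± 0.14 (SE, adjusted p = 0.0013), and Efna1 rose by 0.83 (adjusted p = 0.044). Epha2, Efna1 and Sema3e were the members called higher in all 3 depleted lines, but with median-of-ratios scaling the MTF2 calls of Efna1 and Sema3e were lost, at log2 changes of 0.79 and 0.65. ESC markers summed to 54 to 65.3 TPM with auxin and 27 to 33.1 TPM without it, with 2 of 6 higher, and neuron markers to 1966 to 2016 TPM and 2682 to 2762 TPM, with 4 of 6 lower. Neural progenitor markers summed to 912 to 992 TPM with auxin and 1094 to 1128 TPM without it, with 3 of 6 lower. Mesoderm and mesenchyme markers summed to 116 to 126 TPM with auxin and 75.9 to 92.8 TPM without it. Endoderm markers summed to 63 to 77.7 TPM and 46.4 to 53.3 TPM. Their part was not tested.

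Auxin alone moved no member of untagged NPC past the test, and 0% of all genes were called. At an unadjusted p under 0.05 there were 18 members, and voom on recovered reads called 1, lower. The median log2 change of the members was -0.11, against -0.02 over all genes. The members with the smallest p were Plxna4, with 11.2, 10.6 and 8.78 TPM with auxin and 14.5, 13.9 and 12.9 TPM without it (log2 change -0.42, adjusted p = 0.50), and Nrp1, with -0.35 (adjusted p = 0.57).

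Each depleted line was therefore also tested for its auxin effect minus that of the untagged line. For SUZ12 NPC 30 members were called lower and 15 higher, where 24.7% and 18.8% of all genes were. The JARID2 effect beyond the untagged one was called lower for 23 members and higher for Epha2, Sema3e, Efna1 and Efnb2, where 5.94% and 3.1% of all genes were called. Nrp1 was among the 23, at -1.04 (adjusted p = 1.1e-04). For MTF2 NPC 2 members were called, Robo3 lower at -1.81 ± 0.27 (SE, adjusted p = 0.0023) and Sema3c higher at 0.91 ± 0.16 (SE, adjusted p = 0.0045), where 1.4% of all genes were called in either direction. Epha2 in the MTF2 line had 0.75 (adjusted p = 0.060) beyond the untagged effect.

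The tagged lines differed from the untagged line before auxin, most of all in JARID2 NPC. There 25 members were called lower and 11 higher without auxin, where 12% and 11.8% of all genes were. Dcc was at 0.983, 1.19 and 0.788 TPM in untreated JARID2 NPC, against 5.45, 5.41 and 6.21 TPM in untreated untagged NPC, with -2.06 ± 0.18 (SE, adjusted p = 1.6e-08). Epha3, Robo3, Epha5 and Unc5a were lower by 1.96, 1.19, 1.15 and 1.02 on the log2 scale. Sema3c had 14.5, 15.9 and 15.3 TPM in the JARID2 line and 5.62, 5.28 and 5.29 TPM in the untagged line, and Sema3e, Epha2, Sema3b and Efnb2 were higher by 1.22, 1.19, 1.17 and 0.71. Each of these, the 5 largest differences in each direction, except Sema3c differed before auxin in the direction in which auxin then moved it. No share over all genes or over the other called members is given for this, so it describes the named genes alone. Slit2, Ntn1, Plxnb2 and Efna3 were called in opposite directions in these 2 comparisons, which share the untreated JARID2 libraries. Slit1, with 278, 265 and 259 TPM in the JARID2 line and 280.1, 267 and 222 TPM in the untagged line, was not called (log2 change 0.07, adjusted p = 0.58). Without auxin, neuron markers summed to 1511 to 1768 TPM in JARID2 NPC and 2728 to 2948 TPM in untagged NPC. Neural progenitor markers summed to 684 to 811 TPM and 1133 to 1192 TPM, and ESC markers to 49.9 to 65.2 TPM and 18.5 to 21.7 TPM. Floor plate markers summed to 665 to 686 TPM and 541 to 582 TPM, and endoderm markers to 43.7 to 53 TPM and 26.7 to 28.1 TPM. The part of these cell types in the differences was not tested.

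In untreated MTF2 NPC 7 members were higher than in untagged NPC and 1, Efnb3, lower, where 6.19% and 2.57% of all genes were. Epha2 led with 9.32, 6.99 and 6.75 TPM in the MTF2 line and 3.41, 3.32 and 3.19 TPM in the untagged line (log2 change 1.09, adjusted p = 2.5e-05), and Efnb2, Sema3b, Sema3c, Slit2, Plxnb2 and Ntn1 were higher by 0.26 to 0.52. The count of 8 was 3 without untagged replicate 3 and 5 without MTF2 replicate 1. No member differed between untreated SUZ12 and untagged NPC, where 0.814% of all genes did. In that comparison 9 members passed an unadjusted p of 0.05, voom on recovered reads called 5, and the smallest p were those of Efnb2 and Efna5, at 0.32 (adjusted p = 0.12) and 0.33 (adjusted p = 0.16).

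In ESC, 12 h of auxin moved few guidance genes. SUZ12 ESC had 3 members called higher and 1 lower of 51 tested, where 6.83% of all genes were called. Ephb2 had 4.91, 5.41 and 4.97 TPM with auxin and 3.94, 3.54 and 3.56 TPM without it (log2 change 0.42, adjusted p = 0.023), and Plxna2 5.96, 4.43 and 4.66 TPM and 3.66, 2.98 and 3.76 TPM (log2 change 0.47, adjusted p = 0.047). Both were called lower with auxin in SUZ12 NPC. Ephb4 rose by 0.19 (adjusted p = 0.041) and Robo4 fell by 0.77 (adjusted p = 0.039). The median log2 change of the 51 was 0.29, against 0.09 over all genes, and 24 had an unadjusted p under 0.05.

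These SUZ12 ESC calls rested on single libraries and settings. Counts were 1, 0 and 0 without untreated replicate 1, 2 or 3, and 0, 1 and 4 without auxin-treated replicate 1, 2 or 3. With median-of-ratios scaling 1 member, Robo4, was called, lower, whereas voom on recovered reads called 17 higher and 1 lower. The share of all genes that voom called is not given here. Robo4 also had a negative change in untagged ESC, at -0.63 (adjusted p = 0.46).

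In MTF2 ESC the single call was Ephb4, with 69.4, 69.2 and 69.6 TPM with auxin and 54.9, 56.5 and 58.3 TPM without it (log2 change 0.29, adjusted p = 0.0059), where 1.09% of all genes were called. JARID2 and untagged ESC had no call by limma, where 0.298% and 0.212% of all genes were called, with 5 and 7 members at an unadjusted p under 0.05 and 0 and 1 called by voom. The smallest p in JARID2 ESC were those of Ephb4, with a log2 change of 0.19 (adjusted p = 0.21), and Robo4, with -0.72 (adjusted p = 0.26), and in untagged ESC that of Ntn1, at -0.36 (adjusted p = 0.10). Beyond the untagged effect limma called no member in SUZ12, MTF2 or JARID2 ESC, where 0.192%, 0.00662% and 0% of all genes were called. At an unadjusted p under 0.05 there were 8, 1 and 1 members, whereas voom on recovered reads called 2, 0 and 0. The smallest p among them was that of Ntn1 in the SUZ12 line, at 0.51 (adjusted p = 0.084).

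Untreated ESC of the MTF2 line had 8 members higher and 3 lower than untagged ESC, where 7.32% and 8.39% of all genes were. Ntn1 had 39.1, 39.8 and 39.5 TPM in the MTF2 line and 21.8, 22.5 and 20.2 TPM in the untagged line (log2 change 0.86, adjusted p = 1.9e-07), and Sema5b, Robo4, Plxnb1 and Ephb6 were higher by 0.87, 0.66, 0.40 and 0.39. The 3 lower were Ephb1, Efnb1 and Ephb4, by 0.86, 0.78 and 0.35. Without untagged replicate 3 the count of 11 was 7. The JARID2 line had 5 members called, where 6.31% of all genes were, led by Robo4 at 1.27 (adjusted p = 7.2e-04), with Plxna1 and Epha2 also higher, by 0.31 and 0.30, and Slit2 and Ephb4 lower, by 0.51 and 0.23. In the SUZ12 line limma called none, where 1.65% of all genes were called, with 7 members at an unadjusted p under 0.05 and 1 called by voom, and with the smallest p in Efna2 at 0.31 (adjusted p = 0.091) and Robo4 at 0.70 (adjusted p = 0.13).

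Other genes of the pathway were counted beside the shares of all genes, which were 47.6% higher and 28.5% lower in NPC than in ESC. With auxin 33%, 15.7% and 3.11% of all genes were lower in SUZ12, JARID2 and MTF2 NPC, and 23.9%, 9.28% and 5.03% higher. Of 25 co-receptors and further cues, 23 were higher in NPC than in ESC and none lower. In SUZ12, JARID2 and MTF2 NPC 17, 18 and 8 of the 25 were called lower with auxin and 2, 0 and 3 higher. Cntn2, an axonal adhesion molecule, averaged 5.61 TPM with auxin and 92.4 TPM without it in SUZ12 NPC, and 8.86 and 39.8 TPM in JARID2 NPC. Shh, which is on this list and also on that of floor plate markers, was called higher beyond the untagged effect in MTF2 NPC, by 0.49. Of 40 tested genes of signal transduction below the receptors, 31 were higher and 6 lower in NPC than in ESC. In SUZ12, JARID2 and MTF2 NPC 27, 16 and 5 of them were called lower with auxin and 5, 1 and 0 higher. Crmp1, an intracellular mediator of semaphorin signalling, averaged 48.0 TPM with auxin and 329.9 TPM without it in SUZ12 NPC, and Srgap3, a GTPase-activating partner of ROBO1, 11.3 and 96.6 TPM. Untagged NPC had no call with auxin in either list.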

How the data were processed

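Strand-specific poly(A) libraries were made with the dUTP method, per the labels' protocols, and reads were aligned to mm10 with STAR 2.6.1d, per the submitters' processing notes. How reads were counted, and with which annotation, was not given in the sources used here. The authors deposited 1 table of TPM values, scaled to the same total in every library. TPM is relative, so a rise of abundant genes lowers the rest. Whole reads were recovered from the TPM steps for 100.0% of 27296 genes above 0 (tolerance 0.001), giving 3237115 to 8707922 reads per library (median 5391121). The coarsest step that gave whole numbers was taken, so reads and depths are lower bounds. Recovery could not fail for the 2094 genes seen in 1 library, so the 100.0% is no check of it. Tests used limma 3.58.1 in R 4.3.3 (trended, robust empirical Bayes) on log2(TPM + 0.5). A fit held the 8 groups of 1 stage, or all 16 for NPC against ESC, with the filter given in the report and Benjamini-Hochberg adjustment over all genes tested. Other settings tried were a pseudocount of 0.1 or 1, keeping every gene, scaling by median of ratios, fitting the compared groups alone, replicate blocks, voom on recovered reads (a count test) and leaving out each library. The JARID2 minus SUZ12 contrast was chosen after seeing the data. Named members were, per comparison, every called member up to 8 or else the 5 largest rises and 5 largest falls, where none was called the 2 with the smallest p, and per family the largest changes (up to 3 rises and 2 falls) and the most abundant member at each stage. Other values were printed after they were seen. Members and lists were chosen with earlier results of these data known. The design text calls the replicates biological. Gene positions are those of GENCODE M21 (GRCm38), and promoter sequences those of RefSeq.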

Additional observations from a re-analysis of the deposited data

Results flagged for a closer look

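The auxin effect differed between lines by a test of the difference itself for 31 results. Against the untagged line, the SUZ12 effect in NPC had a log2 difference of -3.25 for Sema6d, -3.09 for Slit1, -2.45 for Dcc, -2.40 for Sema5b and -2.39 for Plxna4. The difference was 3.15 for Epha2, 2.54 for Efna1, 2.09 for Unc5b, 1.76 for Robo4 and 1.76 for Epha8. Robo4 passed the filter only through the auxin-treated SUZ12 libraries, so only a rise could be seen in it. For JARID2 the same difference was -1.31 for Robo3, -1.28 for Sema6d, -1.24 for Unc5a, -1.11 for Slit1 and -1.10 for Epha10, and 1.40 for Efna1, 1.38 for Sema3e, 1.29 for Epha2 and 0.45 for Efnb2. For MTF2 it was -1.81 for Robo3 and 0.91 for Sema3c.

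Between depleted lines, the JARID2 minus SUZ12 difference in NPC was 2.32 for Dcc, 1.98 for Slit1, 1.97 for Sema6d, 1.71 for Sema5b and 1.69 for Plxna4. It was -1.86 for Epha2, -1.62 for Unc5b, -1.61 for Epha1, -1.24 for Sema3a and -1.14 for Efna1. Groups of 2 and 3 libraries were not searched for single outlying libraries.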

How the results depend on the processing

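The 144 log2 fold changes named in the report or chosen by its rule were recomputed 2203 times under other settings: 2055 kept direction and side of the threshold, 138 fell short of it, 10 newly passed it and none changed sign. Counts of members called moved by more than 1.5 times as follows. In SUZ12 ESC with auxin (main count 4) there were 2 without a filter, 1 with median-of-ratios scaling, 18 with voom on recovered reads and 1 with the compared groups alone, and in MTF2 ESC (main 1) 2 with voom and 0 with the groups alone. Untagged ESC (main 0) had 1 with scaling and 1 with voom, and untagged NPC (main 0) 1 with voom. With the untagged effect taken off, voom gave 2 for SUZ12 ESC (main 0) and 4 for MTF2 NPC (main 2). Between untreated lines, SUZ12 ESC (main 0) had 1 with voom, MTF2 ESC (main 11) 5 and JARID2 ESC (main 5) 3 with the groups alone, SUZ12 NPC (main 0) 5 with voom, and MTF2 NPC (main 8) 14 with voom and 5 with the groups alone. Library numbers did not pair the samples: same-numbered libraries of a line had deviations correlated between -0.033 and 0.085. A replicate block by title number or by library-name number gave 1 call for untreated SUZ12 NPC and 14 for untreated MTF2 NPC, and moved no other count by over 1.5 times. Median-of-ratios scaling shifted the median of all genes by -0.28 in NPC against ESC and by 0.12 and 0.11 in SUZ12 NPC without and with the untagged effect taken off, and by less than 0.1 elsewhere. Leaving out 1 library at a time gave 58 to 61 calls for NPC against ESC. For auxin the range was 51 to 56 in SUZ12 NPC, 40 to 43 in JARID2 NPC, 8 to 12 in MTF2 NPC, 0 in untagged NPC, 0 to 4 in SUZ12 ESC, 1 in MTF2 ESC and 0 in JARID2 and untagged ESC. Beyond the untagged effect it was 39 to 44, 24 to 29 and 2 to 3 in SUZ12, JARID2 and MTF2 NPC and 0 in all 3 ESC lines. Between untreated lines it was 30 to 36 in JARID2 NPC, 3 to 10 in MTF2 NPC, 0 in SUZ12 NPC and ESC, 7 to 10 in MTF2 ESC and 4 to 6 in JARID2 ESC, and 30 to 36 for JARID2 minus SUZ12. Where a library was left out of a group of 2, the lone sample was assumed to vary like the other groups. The cause of these moves was not tested. At these depths members under about 1 TPM, such as Robo4, Epha8, Epha1 and Epha3, rested on few reads.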
